A study of Arabidopsis thaliana with 18 samples.

Results

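The expression of 10 Arabidopsis genes of asparagine metabolism and of the response to sugar starvation was followed by RNA-seq in whole rosettes, 10 of the 33602 genes in the count table. They were picked by gene ID: the asparagine synthetases ASN1 (AT3G47340), ASN2 (AT5G65010) and ASN3 (AT5G10240), the asparaginases ASPGA1 (AT5G08100) and ASPGB1 (AT3G16150), and the starvation genes SEN1 (AT4G35770), DIN10 (AT5G20250), BCAT2 (AT1G10070), AT3G15450 and TPS8 (AT1G70290). The set was chosen by a measured value, the interaction of ref2-1 with MED5 in ASPGB1. For that reason every member in that interaction, and ASPGB1 in each comparison with the wild type, ref2-1, med5 or ref2-1 med5 genotype, are described here without a test. All 10 members passed the filter on low counts.

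The samples were 18-day-old rosettes of the ecotype Columbia-0, grown with 16 hours of light and 8 hours of dark and harvested 6.5 hours after subjective dawn, so in the light. Each library came from 5 rosettes pooled from different pots. The 6 genotypes had 3 libraries apiece. They were the wild type, the single mutants ref5-1 and ref2-1, the double mutant med5a-1 med5b-1 (written med5), and the triple mutants ref5-1 med5a-1 med5b-1 (ref5-1 med5) and ref2-1 med5a-1 med5b-1 (ref2-1 med5). The ref5-1 mutant is affected in CYP83B1, a cytochrome P450 of indole glucosinolate synthesis, ref2-1 in CYP83A1, its counterpart in aliphatic glucosinolate synthesis, and med5 in MED5A and MED5B, which encode parts of Mediator, a bridge between transcription factors and RNA polymerase. The mutants carry these alleles throughout the plant, and pooled rosettes mix many cell types. Fewer cells of a type and less RNA per cell therefore cannot be told apart.

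Asparagine carries much nitrogen for little carbon, and plants use it to store and move nitrogen. Asparagine synthetases make it from aspartate and the amide group of glutamine, and asparaginases split it again into aspartate and ammonium. When carbon runs short, in prolonged darkness for example, the kinase SnRK1 and bZIP transcription factors turn on genes such as ASN1 (also known as DIN6), SEN1 (DIN1), DIN10 and BCAT2, and light and sugar turn them off. Levels below are CPM (read counts scaled to the TMM-adjusted library size), with the SD of 3 libraries where a mean is given. Differences are log2 values with their SE from an edgeR quasi-likelihood fit to all 18 libraries, and a gene was called at a Benjamini-Hochberg adjusted p under 0.05 over the 19897 genes tested.

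The labels were checked on the targeted genes and on tissue markers. MED5B was called lower in each med5 genotype against its counterpart with MED5 (log2 -1.78 to -1.89), and CYP83A1 was called lower in both ref2-1 comparisons (-1.71 against wild type and -1.75 against med5). No such check was possible for ref5-1, whose CYP83B1 transcript was not called against wild type. The leaf markers RBCS1A, LHCB1.3 and CA1 summed to 26029 to 35942 CPM in the libraries. Gene counts ran from 19578169 to 33193849 per library. In ref5-1 med5 replicate 1, 25.3% of reads had several alignments. Root markers summed to 356 to 409 CPM in ref5-1 and 369 to 438 CPM in ref5-1 med5, against 96.0 to 156 CPM in wild type. They summed to 157 to 185 CPM in ref2-1 med5, above the 88.4 to 144 CPM of ref2-1 and the 62.8 to 110 CPM of med5 without overlap. Nearly all of that was PYK10, and its part in the results was not tested. PYK10 was called higher in ref2-1 med5 than in med5 (1.08 ± 0.22, adjusted p = 0.0052), in ref5-1 med5 than in med5 (2.36) and in ref5-1 than in wild type (1.58).

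The stretches around 4 transcription starts are shown: that of ASPGB1, whose level the set turns on, that of ASN1, the dark-inducible synthetase, and those of SEN1 and BCAT2, which were both high in ref2-1 med5 replicate 1. Each runs from 250 bases before to 50 bases after the annotated start in RefSeq's TAIR10.1 assembly, 5′ to 3′ on the strand of the gene. Capitals mark 6-base matches to the G-box CACGTG, to ACTCAT or to TATCCA on either strand.
ASPGB1, chr3:5471485-5471784, plus strand: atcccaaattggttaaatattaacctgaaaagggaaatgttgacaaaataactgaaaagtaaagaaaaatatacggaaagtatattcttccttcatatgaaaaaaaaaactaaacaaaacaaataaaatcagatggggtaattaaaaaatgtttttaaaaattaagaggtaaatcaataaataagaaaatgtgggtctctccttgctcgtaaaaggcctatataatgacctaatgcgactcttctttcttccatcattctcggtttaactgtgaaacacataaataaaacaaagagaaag
ASN1, chr3:17441382-17441681, minus strand: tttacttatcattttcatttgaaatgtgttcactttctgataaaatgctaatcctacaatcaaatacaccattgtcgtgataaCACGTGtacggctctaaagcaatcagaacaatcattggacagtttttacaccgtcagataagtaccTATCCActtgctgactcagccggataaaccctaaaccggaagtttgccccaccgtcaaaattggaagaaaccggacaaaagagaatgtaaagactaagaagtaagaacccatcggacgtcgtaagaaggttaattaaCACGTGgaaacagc
SEN1, chr4:16944628-16944927, plus strand: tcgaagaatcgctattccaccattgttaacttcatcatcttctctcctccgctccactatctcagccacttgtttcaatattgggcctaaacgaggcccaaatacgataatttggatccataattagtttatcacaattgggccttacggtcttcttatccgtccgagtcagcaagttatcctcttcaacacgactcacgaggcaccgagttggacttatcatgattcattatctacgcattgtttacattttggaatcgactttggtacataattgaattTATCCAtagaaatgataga
BCAT2, chr1:3287837-3288136, plus strand: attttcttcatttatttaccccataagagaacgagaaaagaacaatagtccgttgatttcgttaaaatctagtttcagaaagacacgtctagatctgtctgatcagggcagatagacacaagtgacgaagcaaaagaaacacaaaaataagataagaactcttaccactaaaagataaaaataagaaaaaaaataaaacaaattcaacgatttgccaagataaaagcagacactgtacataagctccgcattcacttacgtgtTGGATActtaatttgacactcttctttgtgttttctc
The G-box, whose letters read the same on both strands, stood in 7.68% of the 27443 promoters of this length and in 1 of the 10 members, ASN1, which held 2 copies. TATCCA was present in 16.1% of all promoters and in 4 members, ASN1, ASN3, SEN1 and BCAT2. ACTCAT was present in 14.7% of all promoters and in 1 member, ASN2. No match was found in the window of ASPGB1. These are matches of letters alone.

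ASPGB1, the potassium-dependent asparaginase, varied more between genotypes than any other asparagine gene here. Its levels were 4.23, 3.64 and 3.26 CPM in the wild type, 1.08, 1.41 and 1.28 CPM in ref5-1, and 1.46, 1.73 and 1.81 CPM in ref2-1. They were 4.35, 8.39 and 3.53 CPM in med5, 0.528, 1.07 and 0.914 CPM in ref5-1 med5, and 15.2, 11.8 and 8.68 CPM in ref2-1 med5. Every ref2-1 med5 library therefore stood above every other library of the study, and every library of ref5-1, ref2-1 and ref5-1 med5 stood below every library of wild type and med5. Depth limits the low end, where ref5-1 med5 rests on 10, 34 and 19 counts, while ref2-1 med5 rests on 339, 288 and 197 counts.

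The ref5-1 genotypes were not used in the choice of the set, but the wild type, med5 and ref2-1 values they are set against were, so these differences are descriptions too. ASPGB1 in ref5-1 stood at -1.56 against wild type on the log2 scale (2.94-fold lower), and in ref5-1 med5 at -2.65 against med5 (6.27-fold lower). The libraries did not overlap in either. The ref5-1 difference without MED5 minus that with it was -1.09. Without med5 replicate 2 the last of these was -0.63, and the difference of ref5-1 med5 from med5 was -2.19. ASPGB1 in ref5-1 lay -0.41 from ref2-1, again without overlap. The one comparison that shares no library with the choice is ref5-1 med5 against ref5-1, where the difference was -0.54 ± 0.36 (adjusted p = 0.36, edgeR) and did not pass, although the libraries did not overlap.

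Among the genotypes on which the gene was selected, the direction with MED5 was the opposite of that without it. The ref2-1 value was -1.15 against wild type where MED5 was present and 1.13 against med5 where it was absent. The med5 alleles gave 0.55 on the wild-type background, where the libraries overlapped, and 2.83 on the ref2-1 background. Without med5 replicate 2, the highest med5 library, the med5 value against wild type was 0.09 and the ref2-1 med5 value against med5 was 1.59. The interaction was 2.28, and in the 2 ref2-1 comparisons the libraries of the groups did not overlap. All of these values are descriptions. As background, 0.749% of all tested genes were called in the ref2-1 by MED5 interaction.

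Transcripts of flower organ identity genes moved with part of this pattern. The 4 flower markers AP3, PI, AG and SEP3, homeotic MADS-box genes that pattern the floral organs, summed to 3.07 to 4.31 CPM in the wild type, 1.40 to 2.90 CPM in ref5-1 and 2.30 to 2.54 CPM in ref2-1. They summed to 4.70 to 8.73 CPM in med5, 2.53 to 3.32 CPM in ref5-1 med5 and 5.33 to 7.40 CPM in ref2-1 med5. None of the 4 was at 0 in any library, and their sum was highest in med5, where ASPGB1 was not. In ref5-1 against wild type 2 of the 4 fell (AG and SEP3), beside 8.72% of all tested genes called, and in ref2-1 against wild type 1 fell (SEP3), beside 24.7%. In ref5-1 med5 against med5 2 fell (AP3 and AG), beside 10.4%, and in ref2-1 med5 against med5 1 fell (AG), beside 16.3%. In that last comparison the median of the 4 was -0.27, opposite in sign to the 1.13 of ASPGB1. For the loss of MED5, 0 were called against wild type (beside 0.779%), 1 rose on ref5-1 (SEP3, beside 10.8%) and 3 rose on ref2-1 (AP3, PI and SEP3, beside 8.91%). The summed root markers, nearly all PYK10, were also higher in ref2-1 med5 than in ref2-1 and med5, as given above. Of the 2 root markers tested, 0 were called in ref2-1 med5 against ref2-1 (beside 8.91%). The sum was highest in ref5-1 and ref5-1 med5, where ASPGB1 had its lowest means. The part of either list in the ASPGB1 values was not tested.

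**Figure D1:**
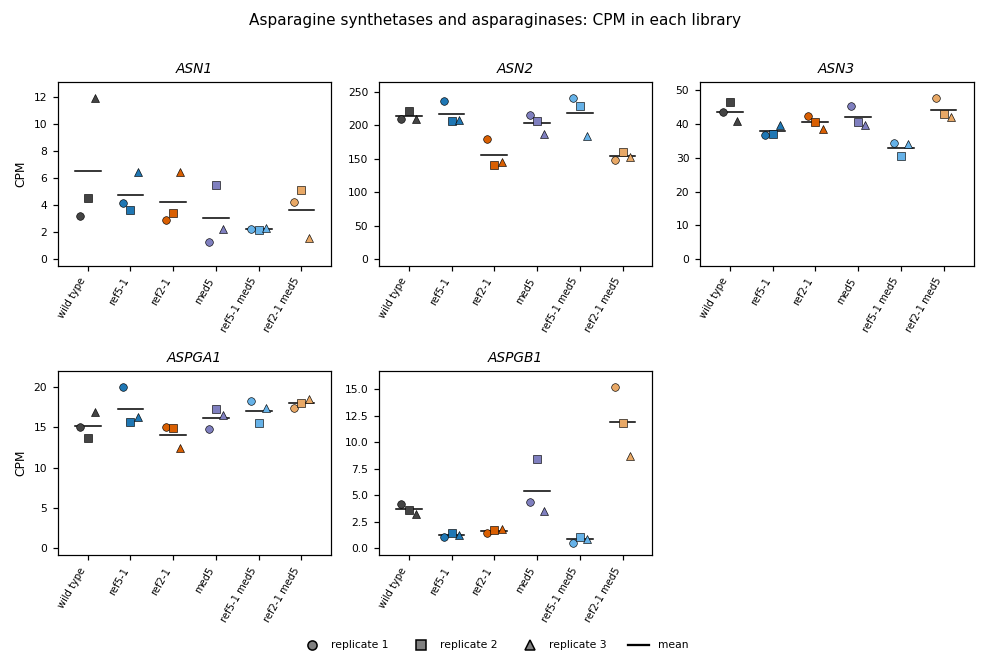
CPM of the 3 asparagine synthetases and 2 asparaginases in each of the 18 libraries, by genotype. Marker shapes give the replicate and lines the mean; ASPGB1 in ref2-1 med5 sits between 8.68 and 15.2 CPM, above all other libraries, and ASN2 is at 140 to 180 CPM in the 6 libraries that carry ref2-1.

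ASPGA1, the potassium-independent asparaginase, stayed in a narrow band of 12.4 to 19.95 CPM over the 18 libraries. It was called in none of the comparisons. The nearest was ref2-1 med5 against ref2-1, with 17.4, 18.0 and 18.5 CPM against 14.98, 14.9 and 12.4 CPM. The libraries did not overlap there, and the difference was 0.35 ± 0.11 (adjusted p = 0.054, edgeR). DESeq2 called it at an adjusted p of 0.047, and a fit to those genotypes alone at 0.049. Between ref5-1 and ref2-1 the difference was 0.29 ± 0.11 (adjusted p = 0.064), which passed without ref5-1 replicate 2 (0.36, adjusted p = 0.046).

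Per kilobase of exon ASPGA1 was the larger of the asparaginases in every genotype, at 9.16 to 11.7 CPM per kb as genotype means. ASPGB1 had 2.72 ± 0.36 CPM per kb in wild type, 0.92 ± 0.12 in ref5-1, 1.22 ± 0.14 in ref2-1, 3.97 ± 1.91 in med5, 0.61 ± 0.20 in ref5-1 med5 and 8.73 ± 2.39 in ref2-1 med5. Its share of the summed asparaginase level was 21.7 ± 3.31% in wild type, 7.70 ± 1.79% in ref5-1 and 5.32 ± 2.04% in ref5-1 med5. It was 11.9 ± 2.16% in ref2-1, 26.6 ± 8.11% in med5 and 42.3 ± 7.46% in ref2-1 med5. The summed level of both genes was 20.4 ± 2.05 CPM per kb in ref2-1 med5 and 10.4 to 14.5 CPM per kb in the other genotypes.

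**Figure D2:**
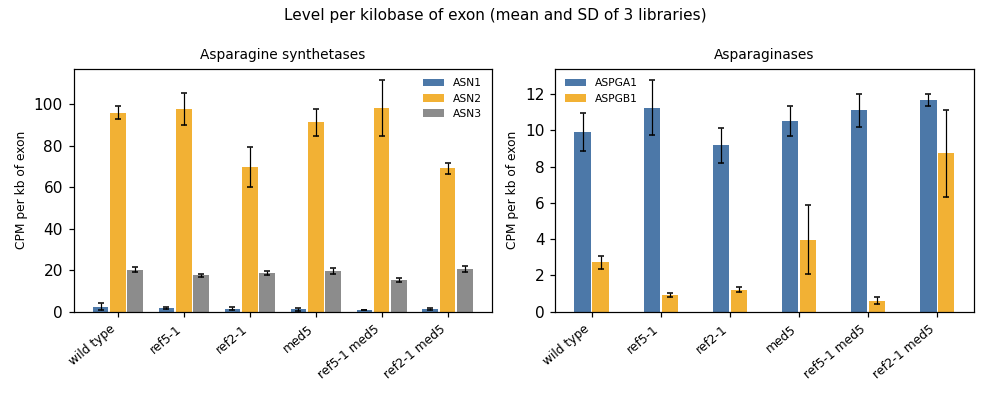
Mean level per kilobase of exon (CPM per kb, bars from 0, error bars SD of 3 libraries) of the asparagine synthetases on the left and the asparaginases on the right, by genotype. ASN2 is the tallest synthetase in each genotype, and ASPGB1 reaches 8.73 CPM per kb in ref2-1 med5.

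ASN2, the light-induced synthetase, was the most abundant of its family and was lower wherever ref2-1 was present. It read 209, 221 and 209 CPM in the wild type, 237, 206 and 207 CPM in ref5-1, and 180, 140 and 144 CPM in ref2-1. Without MED5 it read 216, 206 and 187 CPM in med5, 241, 229 and 185 CPM in ref5-1 med5, and 149, 160 and 152 CPM in ref2-1 med5. No ref2-1 library reached the lowest library of a genotype without that allele. ASN2 fell by 0.46 ± 0.10 in ref2-1 against wild type (1.38-fold lower, adjusted p = 0.0032, edgeR) and by 0.40 ± 0.10 in ref2-1 med5 against med5 (1.32-fold lower, adjusted p = 0.014, edgeR). The second call was lost without med5 replicate 1 (adjusted p = 0.065) or without ref2-1 med5 replicate 1 (adjusted p = 0.056), with differences of -0.36 and -0.38. ASN2 was higher in ref5-1 than in ref2-1 by 0.48 ± 0.10 (adjusted p = 0.0026, edgeR).

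ASN3 was steady, with the lowest spread within genotypes of all 10 members, and fell in one comparison. It read 34.4, 30.5 and 33.9 CPM in ref5-1 med5 and 45.4, 40.7 and 39.8 CPM in med5. The libraries did not overlap, and the fall was 0.35 ± 0.08 (1.28-fold lower, adjusted p = 0.0067, edgeR). Without med5 replicate 1 it was 0.29 and the adjusted p was 0.0504, just past the threshold. In ref5-1 against wild type the values were 36.8, 36.9 and 39.6 against 43.4, 46.5 and 40.9 CPM, a difference of -0.21 ± 0.08 (adjusted p = 0.11) that was not called.

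ASN1, which darkness induces, was low and uneven in these rosettes harvested in the light. Its levels were 3.19, 4.50 and 11.9 CPM in the wild type, 4.14, 3.66 and 6.42 CPM in ref5-1, and 2.92, 3.39 and 6.48 CPM in ref2-1. They were 1.28, 5.49 and 2.26 CPM in med5, 2.22, 2.14 and 2.31 CPM in ref5-1 med5, and 4.26, 5.14 and 1.59 CPM in ref2-1 med5. Groups overlapped in every comparison except ref5-1 med5 against ref5-1, where the difference was -1.095 ± 0.62 (adjusted p = 0.28). ASN1 was called in none, although a fit to those genotypes alone, whose spread comes from 6 libraries, called it there (adjusted p = 0.024). Replicates of ASN1 differed by an SD of 0.744 on the log2 scale within a genotype, more than 97.8% of tested genes.

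Per kilobase of exon ASN2 made up 76.0% to 85.8% of the summed synthetase level as genotype means, ASN3 13.5% to 22.6% and ASN1 0.717% to 2.02%. The sum was 118 ± 3.75 CPM per kb in wild type, 89.9 ± 10.15 in ref2-1 and 90.8 ± 2.64 in ref2-1 med5.

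SEN1, a senescence-associated gene induced by darkness, was highest in wild type among the genotypes whose libraries lay close together. It read 4.15, 4.24 and 3.76 CPM in the wild type, 1.86, 1.81 and 1.57 CPM in ref5-1, 0.828, 0.932 and 0.816 CPM in ref2-1 and 1.32, 1.38 and 2.45 CPM in med5. It read 2.06, 2.45 and 2.55 CPM in ref5-1 med5, but 12.8, 0.987 and 0.925 CPM in ref2-1 med5. Every library of ref5-1, ref2-1, med5 and ref5-1 med5 was below every wild-type library, while replicate 1 of ref2-1 med5 was the highest of all 18.

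The calls changed with the single high library in or out of the fit. With it in the fit, the differences from wild type were -1.21 ± 0.74 in ref5-1 (adjusted p = 0.37), -2.22 ± 0.80 in ref2-1 (adjusted p = 0.060) and -1.24 ± 0.75 in med5 (adjusted p = 0.56), and none was called. Without ref2-1 med5 replicate 1, a choice made after seeing the data, the same differences were -1.22 (adjusted p = 0.0013), -2.23 (adjusted p = 5.9e-06) and -1.25 (adjusted p = 0.0053) in edgeR. SEN1 was then also higher in ref5-1 than in ref2-1, by 1.02 (adjusted p = 0.0043). The ref5-1 by MED5 interaction was 1.68 in both fits, with an adjusted p of 0.71 with that library and 0.035 without it. A fit to the compared genotypes alone also called SEN1 in ref5-1 (-1.21, adjusted p = 0.0038), in ref2-1 (-2.23, adjusted p = 4.6e-05) and in med5 (-1.25, adjusted p = 0.045) against wild type. It called ref5-1 against ref2-1 as well (1.03, adjusted p = 0.012), but not the interaction, which stayed at 1.68. None of these comparisons contains the library, and the differences themselves hardly moved. In ref2-1 med5 against ref2-1 the value itself rested on it, at 2.50 ± 0.80 with all libraries (adjusted p = 0.072) and 0.15 without it. Leaving out replicate 2 or replicate 3 of ref2-1 med5 instead gave 2.99 either way, which was called (adjusted p = 0.030 and 0.021). Against med5 it was 1.52 ± 0.75 with it (adjusted p = 0.19) and -0.83 without it (adjusted p = 0.053).

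BCAT2, an aminotransferase of branched-chain amino acids, was near the limit of detection. It read 0.239, 0.5999 and 0.607 CPM in the wild type, 0.704, 0.764 and 0.963 CPM in ref5-1, 0.985, 1.63 and 1.31 CPM in ref2-1 and 0.341, 0.461 and 0.687 CPM in med5. In ref5-1 med5 it read 0.686, 1.13 and 3.90 CPM and in ref2-1 med5 4.39, 0.617 and 1.41 CPM, so that 1 library of each triple mutant stood far above the others. It lay above wild type without overlap in ref5-1 and in ref2-1, at 0.74 ± 0.75 (adjusted p = 0.61) and 1.43 ± 0.72 (adjusted p = 0.16), and neither was called. The difference from med5 was 1.93 ± 0.72 in ref5-1 med5 (adjusted p = 0.11) and 2.104 ± 0.71 in ref2-1 med5 (adjusted p = 0.058). DESeq2 called both, at adjusted p of 0.035 and 0.013. Without ref2-1 med5 replicate 1, edgeR also called the first of these (1.93, adjusted p = 0.040), and the second came to 1.03. Without ref5-1 med5 replicate 3, the high library, the first came to 0.92 (adjusted p = 0.48). It was called without ref5-1 med5 replicate 1 (2.30, adjusted p = 0.049) and the second without ref2-1 med5 replicate 2 (2.55, adjusted p = 0.022). A fit to ref2-1 and wild type alone called the ref2-1 difference (1.42, adjusted p = 0.018).

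DIN10, a member of the raffinose synthase family, was not called in any comparison. It read 14.4, 18.5 and 13.97 CPM in ref5-1, below wild type at 22.7, 37.4 and 21.1 CPM and ref2-1 at 21.9, 25.5 and 36.5 CPM. The differences were -0.79 ± 0.36 from wild type (adjusted p = 0.21) and -0.83 ± 0.36 from ref2-1 (adjusted p = 0.12). A fit to ref5-1 and ref2-1 alone called the second (-0.81, adjusted p = 0.020). In the med5 genotypes DIN10 ranged from 11.99 to 30.7 CPM and the groups overlapped.

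AT3G15450, a starvation marker of the aluminium-induced protein family, and TPS8, a class II trehalose phosphate synthase, were not called either. AT3G15450 read 34.2, 21.6 and 19.5 CPM in ref2-1 med5 against 16.8, 16.98 and 18.9 CPM in med5, which did not overlap, and the difference was 0.51 ± 0.23 (adjusted p = 0.15). Its other libraries lay between 10.13 and 25.5 CPM. TPS8 lay between 57.8 and 101 CPM, its groups overlapped in every comparison, and its differences ran from -0.18 to 0.12.

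**Figure D3:**
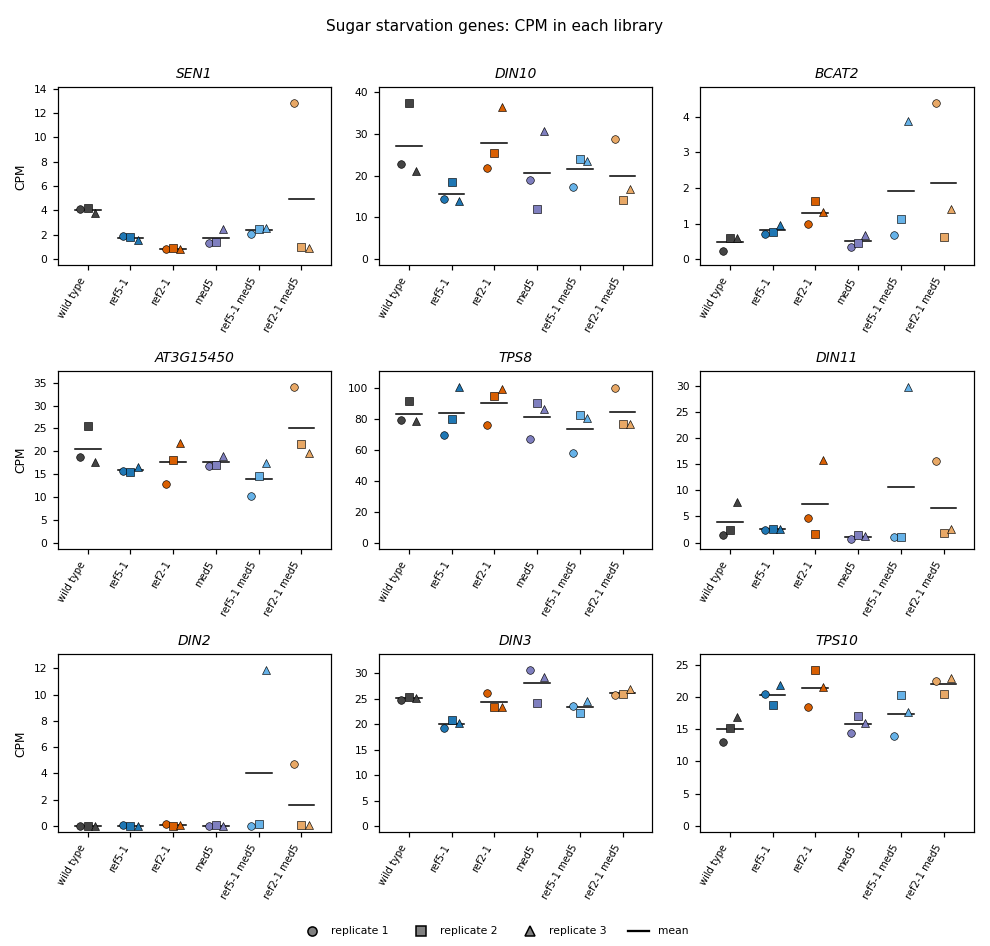
CPM of the 5 starvation members and of 4 other dark-inducible or trehalose phosphate synthase genes (DIN11, DIN2, DIN3, TPS10) in each library, by genotype. Marker shapes give the replicate and lines the mean; SEN1 and BCAT2 are high in ref2-1 med5 replicate 1, DIN2 in that library and in ref5-1 med5 replicate 3, and DIN11 in both of these and in ref2-1 replicate 3.

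The count of members called can be read against the share of all tested genes called. That share is for the adjusted edgeR calls of the fit to all 18 libraries. No share of all genes was computed for an unadjusted p under 0.05 in edgeR or for DESeq2, here or below. Member counts by these have no background beside them. In ref5-1 against wild type 8.72% of genes were called and 0 of 9 tested members, with 2 members at an unadjusted p under 0.05 in edgeR and 0 called by DESeq2. In ref2-1 against wild type 24.7% of genes were called, and 1 of 9 tested members (ASN2, lower). In ref5-1 med5 against med5 the share was 10.4%, and 1 of 9 was called (ASN3, lower). In ref2-1 med5 against med5 it was 16.3%, and 1 of 9 was called (ASN2, lower). In ref5-1 against ref2-1 it was 21.4%, and 1 of 9 was called (ASN2, higher).

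Loss of MED5 called no tested member in the edgeR fit to all 18 libraries. ASPGB1 was left out where 9 members were tested. In med5 against wild type 0.779% of all genes were called and 0 of 9 members, with 0 members at an unadjusted p under 0.05 in edgeR and 0 called by DESeq2. In ref5-1 med5 against ref5-1 10.8% of genes were called and 0 of 10 members, with 1 member at an unadjusted p under 0.05 in edgeR and 0 called by DESeq2. In ref2-1 med5 against ref2-1 8.91% of genes were called and 0 of 9 members, with 3 at an unadjusted p under 0.05 in edgeR and 1 called by DESeq2, ASPGA1. In the ref5-1 by MED5 interaction 0.0905% of genes were called and 0 of 9 members, with 0 at an unadjusted p under 0.05 in edgeR and 0 called by DESeq2. A fit to the compared genotypes alone called SEN1 in med5 against wild type and ASN1 in ref5-1 med5 against ref5-1. That fit also called ASPGA1 in ref2-1 med5 against ref2-1. No share of all genes was computed for it.

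**Figure D4:**
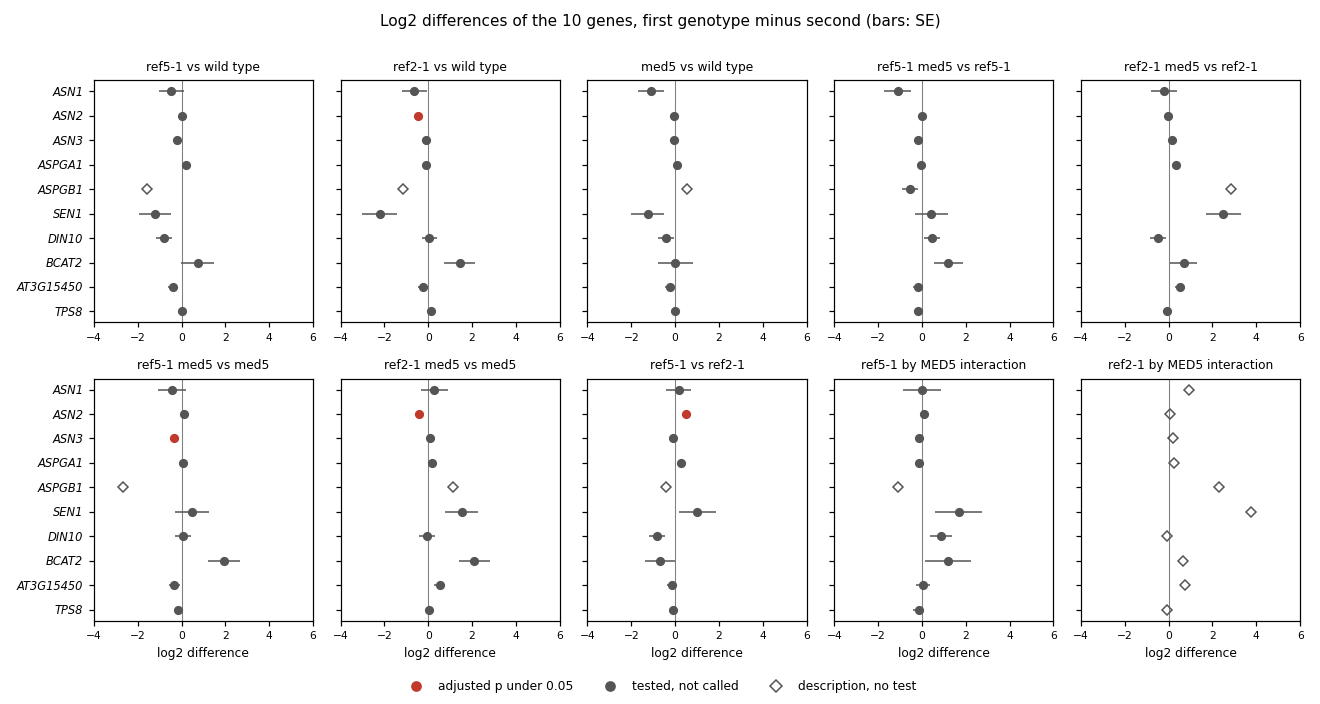
Log2 differences (first genotype minus second) of the 10 genes in each comparison, with SE bars on those tested. Red circles are called at an adjusted p under 0.05, grey circles were tested and not called, and open diamonds are descriptions without a test; ASPGB1, a diamond in all but one panel, lies at -1.56 and -2.65 in the 2 ref5-1 comparisons, and ASN2 at -0.46 and -0.40 in the 2 ref2-1 comparisons.

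In the ref2-1 by MED5 interaction, described only, the values of the other members were 3.74 for SEN1, 0.91 for ASN1, 0.74 for AT3G15450, 0.67 for BCAT2, 0.26 for ASPGA1, 0.18 for ASN3, 0.06 for ASN2, -0.07 for TPS8 and -0.08 for DIN10. Without ref2-1 med5 replicate 1 the SEN1 value was 1.40 and that of BCAT2 was -0.40. The ASN1 value was 0.15 without wild type replicate 3 and 1.70 without med5 replicate 2.

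Ref2-1 med5 replicate 1 stood apart in several starvation genes, and also in genes outside the starvation list. Its SEN1 level was 13.4-fold the mean of the other 2 libraries of its genotype. Genes were ranked by the ratio after 0.5 CPM was added to both sides, which holds down genes near 0. By that ranking, not by the plain fold, 3 of all tested genes lay further up, and the counts in brackets below use it too. BCAT2 was 4.33-fold up (16 genes further), DIN10 1.87-fold (64), AT3G15450 1.66-fold (98), ASPGB1 1.48-fold (217), TPS8 1.31-fold (595) and ASN1 1.27-fold (1082). ASN2 was at 0.953-fold. In all, 72 tested genes of that library were over 2-fold from the other 2, where the 18 libraries ranged from 2 to 501. The 501, of which 403 were lower, were in ref5-1 med5 replicate 1, where 25.3% of reads had several alignments. The 3 genes ranked above SEN1 in ref2-1 med5 replicate 1, named after their values were seen, were KTI1, AT4G16260 and OSM34. From the starvation list only SEN1, DIN11 and BCAT2 were among the 20 tested genes furthest up in that library. AT4G16260, DIN11, AT2G45220, AACT1, ABCG40, AT1G26390 and CHX17 were also among the 20 furthest up in ref5-1 med5 replicate 3. What the 2 libraries share was not tested.

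A pair of other dark-inducible genes, picked from the list after values were seen, was also high in that library. DIN2, a beta-glucosidase gene that did not pass the filter, read 4.75 CPM in ref2-1 med5 replicate 1 and 11.9 CPM in ref5-1 med5 replicate 3, and at most 0.158 CPM in the other 16 libraries. DIN11, a dioxygenase gene, read 15.6 and 29.9 CPM in those libraries, 15.7 CPM in ref2-1 replicate 3 and 0.767 to 7.81 CPM in the others. DRM2 read 1.66 CPM in ref2-1 med5 replicate 1 against 0.781 and 0.881 CPM in the other 2 libraries of the genotype, DIN4 20.02 CPM against 16.9 and 15.6 CPM, and EXPA10 98.1 CPM against 91.5 and 88.9 CPM, each at its highest of the 18 libraries. DIN3 was not high there, at 25.7 CPM against 25.9 and 26.96 CPM, nor was DIN9, at 6.63 CPM against 7.28 and 4.80 CPM. In ref5-1 med5 replicate 3 BCAT2 was 4.29-fold the mean of the other 2 libraries, but SEN1 was at 1.13-fold and DIN10 at 1.13-fold. That library also stood high in CYP71A13 (81.7 CPM against a mean of 2.75) and PAD3 (73.6 against 3.89), which make the defence compound camalexin; they were named after their values were seen.

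**Figure D5:**
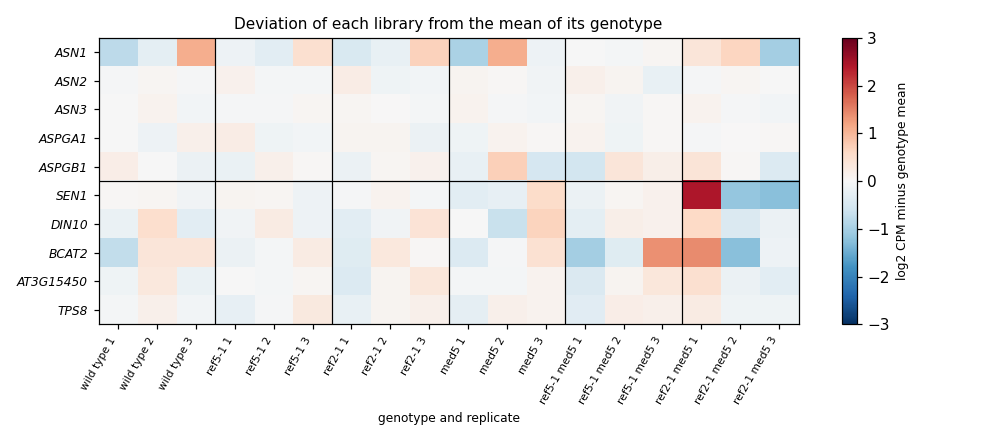
Log2 CPM of each library minus the mean of its genotype for the 10 genes, asparagine genes above the line and starvation genes below. Red is above and blue below the genotype mean; the starvation genes tend to share their colour within a library, most plainly in ref2-1 med5 replicate 1.

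Within genotypes the starvation genes, a group that here leaves out ASN1, tended to vary together from library to library. Over the 18 libraries, as deviations from the genotype mean, the 10 pairs of starvation genes had correlations of 0.441 to 0.778 with a median of 0.628. Without ref2-1 med5 replicate 1 they were 0.257 to 0.731 with a median of 0.468. The 10 pairs of asparagine genes ran from -0.284 to 0.421 with a median of -0.104, the highest being ASN1 with ASPGB1, close to the lowest starvation pair. The 25 mixed pairs ran from -0.643 to 0.621 with a median of -0.0453. ASN1, itself dark-inducible, gave 0.132 with SEN1, -0.183 with DIN10, 0.188 with BCAT2, 0.224 with AT3G15450 and 0.418 with TPS8. Without ref2-1 med5 replicate 1 its values with SEN1 and DIN10 were -0.158 and -0.308. No background from other pairs of genes was computed. ASN2 ran against BCAT2 (-0.643), TPS8 (-0.620) and AT3G15450 (-0.590), and ASPGB1 ran with TPS8 (0.621). These are descriptions, since the genes share libraries and depth.

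The spread within genotypes, as an SD of log2 CPM, was 0.884 for SEN1, 0.823 for BCAT2, 0.448 for DIN10, 0.310 for AT3G15450 and 0.230 for TPS8. It was 0.386 for ASPGB1, 0.137 for ASPGA1, 0.135 for ASN2 and 0.0866 for ASN3, with a median of 0.150 over all tested genes. SEN1, BCAT2 and ASN1 varied more between replicates than 98.7%, 98.3% and 97.8% of tested genes, and ASN3 more than 12.96%.

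Genes around the members in the same pathway were read from lists chosen with earlier results of these data known. Of 21 further genes of asparagine and ammonium metabolism, 0 were called higher and 1 lower in ref5-1 against wild type (beside 8.72% of all tested genes called), and 5 higher and 2 lower in ref2-1 against wild type (beside 24.7%). Without MED5, 2 were higher and 1 lower in ref5-1 med5 against med5 (beside 10.4%), and 2 higher and 5 lower in ref2-1 med5 against med5 (beside 16.3%). The median log2 difference of the list was 0.04, 0.10, 0.02 and -0.09 in these comparisons, beside -0.0042, 0.0015, 0.0017 and 0.016 over all genes. For the loss of MED5, 3 were higher and 0 lower on the wild-type background (beside 0.779%), 5 and 0 on ref5-1 (beside 10.8%), and 2 and 1 on ref2-1 (beside 8.91%). On these backgrounds the median of the list was 0.22, 0.26 and -0.02, beside -0.0017, 0.0033 and -0.00047 over all genes.

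GLN1;4, a cytosolic glutamine synthetase, had its highest means in ref2-1 med5, then med5, then wild type, as ASPGB1 had. The other genotypes stood in another order, with GLN1;4 lowest in ref5-1 and ASPGB1 lowest in ref5-1 med5. GLN1;4 averaged 4.77 ± 0.77 CPM in the wild type, 2.01 ± 0.44 in ref5-1, 3.04 ± 0.74 in ref2-1, 8.79 ± 1.58 in med5, 3.44 ± 0.44 in ref5-1 med5 and 11.3 ± 1.74 in ref2-1 med5. It fell in ref5-1 against wild type (-1.24 ± 0.21, adjusted p = 0.001), in ref2-1 against wild type (-0.64 ± 0.20, adjusted p = 0.024) and in ref5-1 med5 against med5 (-1.34 ± 0.19, adjusted p = 0.00018). It rose in med5 against wild type (0.88 ± 0.19, adjusted p = 0.032), in ref5-1 med5 against ref5-1 (0.78 ± 0.21, adjusted p = 0.026) and in ref2-1 med5 against ref2-1 (1.89 ± 0.19, adjusted p = 1.2e-05). Between ref2-1 med5 and med5, where ASPGB1 differed by 1.13, the GLN1;4 means were 11.3 ± 1.74 and 8.79 ± 1.58 CPM. No test of that GLN1;4 difference is given here.

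The other glutamine synthetases went different ways in ref2-1. GLN1;1, another cytosolic form, rose by 2.42 ± 0.33 against wild type (adjusted p = 0.00021), from 13.4 ± 3.79 to 72.0 ± 11.1 CPM. GLN2, the chloroplast form, fell by 0.52 ± 0.11 (adjusted p = 0.0019), from 2507 ± 94.97 to 1754 ± 198 CPM. ASP4, an aspartate aminotransferase, rose by 1.101 ± 0.12 in ref2-1 against wild type and by 1.49 ± 0.12 in ref2-1 med5 against med5, reaching 42.9 ± 1.52 CPM. NIA2, a nitrate reductase, rose with the loss of MED5 against wild type by 0.70 ± 0.14 (adjusted p = 0.023).

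Of 11 further dark-inducible or starvation genes 10 were tested. TPS10, a class II trehalose phosphate synthase, rose in ref5-1 (0.44 ± 0.13, adjusted p = 0.039) and in ref2-1 (0.51 ± 0.13, adjusted p = 0.0065) against wild type. DIN3, a subunit of branched-chain ketoacid dehydrogenase, fell in ref5-1 (-0.32 ± 0.08, adjusted p = 0.0195). In ref5-1 against wild type the list had 1 gene higher and 1 lower, in ref2-1 against wild type 2 higher and 0 lower, in ref5-1 med5 against med5 0 either way and in ref2-1 med5 against med5 3 higher and 0 lower, beside 8.72%, 24.7%, 10.4% and 16.3% of all tested genes. ProDH1, which breaks down proline and is also repressed by sugar, fell in ref2-1 med5 against ref2-1 (-1.22 ± 0.34, adjusted p = 0.042).

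Of 6 further class II trehalose phosphate synthases, the relatives of TPS8, 1 rose in ref5-1 against wild type (TPS10, beside 8.72% of all tested genes called) and 1 in ref2-1 med5 against med5 (TPS10, beside 16.3%). In ref2-1 against wild type 2 rose, TPS10 and TPS11 (0.57 ± 0.14, adjusted p = 0.005), beside 24.7%. Both genes are also on the dark-inducible list above, so their calls are counted in both lists. TPS6 was higher in ref5-1 than in ref2-1 (0.46 ± 0.09, adjusted p = 0.0012, beside 21.4%), and TPS6 fell in ref5-1 med5 against ref5-1 (-0.34 ± 0.09, adjusted p = 0.020, beside 10.8%). In the other comparisons 0 of the 6 were called. Of 4 further genes of the family of AT3G15450, AILP1 rose in ref5-1 (0.40 ± 0.12, adjusted p = 0.044) and in ref2-1 (0.53 ± 0.12, adjusted p = 0.0035) against wild type and in ref2-1 med5 against med5 (0.68 ± 0.12, adjusted p = 0.0015). In the same family AT5G43830 fell in ref5-1 med5 against med5 (-0.24 ± 0.06, adjusted p = 0.025) and AT3G22850 in ref2-1 med5 against med5 (-0.45 ± 0.14, adjusted p = 0.031). Against wild type, then, 1 of the 4 was called in ref5-1 (beside 8.72% of all tested genes) and 1 in ref2-1 (beside 24.7%). Against med5, 1 was called in ref5-1 med5 (beside 10.4%) and 2 in ref2-1 med5 (beside 16.3%), and in the other comparisons 0 were called.

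Among 14 further genes of branched-chain amino acid breakdown, 1 was higher and 4 lower in ref5-1 against wild type (beside 8.72% of all tested genes called). In ref2-1 against wild type 1 was higher and 1 lower (beside 24.7%), in ref5-1 med5 against med5 2 and 2 (beside 10.4%), and in ref2-1 med5 against med5 2 and 1 (beside 16.3%). E1A1 and E1A2, alternative subunits of the same dehydrogenase, went opposite ways in ref5-1 against wild type, at 0.67 ± 0.12 (adjusted p = 0.0023) and -0.55 ± 0.16 (adjusted p = 0.039). E1A2 also fell in ref5-1 med5 against med5 (-1.18 ± 0.17, adjusted p = 0.00015) and rose in ref2-1 med5 against ref2-1 (0.55 ± 0.16, adjusted p = 0.036).

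The SnRK1 catalytic subunits KIN10 and KIN11 were at 46.7 ± 1.06 and 40.6 ± 1.02 CPM in wild type, bZIP63 was at 32.8 ± 6.29 CPM, and none of them was called in any tested comparison. The other 5 regulators on the list, bZIP1, bZIP2, bZIP11, bZIP44 and bZIP53, had 0 counts in all 18 libraries, so no level can be given for them, and the cause was not tested.

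Of 8 senescence genes 7 were tested. In ref5-1 against wild type 1 was called higher (beside 8.72% of all tested genes called), in ref2-1 against wild type 3 (beside 24.7%), in ref5-1 med5 against med5 3 (beside 10.4%) and in ref2-1 med5 against med5 3 (beside 16.3%), and in these comparisons 0 were lower. For the loss of MED5, 0 were called on the wild-type background (beside 0.779%), 3 rose on ref5-1 (beside 10.8%) and 1 rose on ref2-1 (beside 8.91%). ORE1, a NAC transcription factor of leaf senescence, rose in ref5-1 against wild type (0.85 ± 0.22, adjusted p = 0.021) and in ref5-1 med5 against med5 (1.29 ± 0.21, adjusted p = 0.00057). WRKY53, an early senescence regulator, rose in ref2-1 against wild type (3.04 ± 0.44, adjusted p = 0.00023) and in ref2-1 med5 against med5 (2.11 ± 0.43, adjusted p = 0.0055). SAG21, a senescence-associated gene, rose in ref2-1 against wild type (2.198 ± 0.37, adjusted p = 0.00084). SAG12, a protease gene of late senescence, was at 0 CPM in 4 genotypes and averaged 0.113 CPM in ref2-1.

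By pattern over the 18 libraries, among the 14703 genes averaging at least 5 CPM, the genes most like ASPGB1 were AT1G44760 (Pearson r of log2 CPM 0.903), CBL10 (0.878), FPS2 (0.877), E1A2 under its ID AT5G09300 (0.874) and AT1G21830 (0.874). Those most like ASN1 were PGL5 (0.861), AT3G28220 (0.842), ESL1 (0.828), AT1G17940 (0.824) and AT5G23820 (0.817). AT1G44760 averaged 26.3 ± 1.04 CPM in the wild type, 21.7 ± 0.155 in ref5-1, 20.9 ± 1.63 in ref2-1, 24.9 ± 0.978 in med5, 18.4 ± 1.12 in ref5-1 med5 and 27.4 ± 1.67 in ref2-1 med5. Its lowest and highest genotypes were those of ASPGB1, while ref5-1 and ref2-1, and wild type and med5, stood in the other order.

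Some members overlap a gene on the opposite strand in TAIR10.1, and the strand setting of the counting is not given in the sources used here. BCAT2 overlaps AT1G10090, at 23.5 to 29.8 CPM as genotype means, and AT3G15450 overlaps AT3G15460, at 18.6 to 24.3 CPM. Whether reads of these partners entered the counts of BCAT2 and AT3G15450 was not tested. DIN10 overlaps AT5G20260, at 0.123 to 0.237 CPM, and ASN1 overlaps AT3G47341, which had 0 counts.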

How the data were processed

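Poly(A)-selected RNA-seq of whole rosettes was counted in 18 libraries of 6 genotypes, 3 each, grouped by the genotype in their labels. What the authors deposited is a table of unnormalized read counts, genes by libraries. The submitters' processing notes name Trimmomatic, TopHat2 2.1.0, HTSeq 0.6.1, edgeR and the build TAIR10, with options, annotation release and strand setting not given in the sources used here. The 5 summary lines, reads in no feature (0.775% to 1.44% of a library) among them, were left out of library sizes and tests.

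Counts were fitted in edgeR 4.0.16 under R 4.3.3 with TMM scaling, filterByExpr on genotype (19897 genes left) and a robust quasi-likelihood model with 1 coefficient per genotype. P-values were adjusted by Benjamini-Hochberg over every tested gene, and SEs were derived from the F statistic. P-values reflect the spread between these libraries, each a separate pool of plants. At the lowest depth 3 counts equal 0.158 CPM. The scripts were tested on simulated data. Length scaling used the union of exons in RefSeq's TAIR10.1 annotation, from which promoters were also read; the table gives no coordinates, and 32835 of its IDs have a row there. Promoter sequences are credited to RefSeq. Correlations used log2 CPM (prior count 2). For 1 library against the others of its genotype, genes were ranked and counted as over 2-fold on CPM plus 0.5. The folds printed for members are of plain CPM.

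All 10 members are named. Of the lists, at most the 4 genes with the smallest adjusted p per list and comparison were eligible, and for likeness the 5 genes with the highest correlation with ASPGB1 and with ASN1; DIN2, DIN11 and the ref2-1 comparison of GLN1;4 were added after values were seen. Members and lists were chosen with earlier results of these data known. ASPGB1 was tested only where neither genotype compared had entered its choice, a narrower rule than the one first set, adopted after its values were seen. Alternatives were RLE scaling, DESeq2 1.42.0, no filter, the compared genotypes alone, the replicate number as a block and leaving out each library of the genotypes compared. Ref2-1 med5 replicate 1 was also left out for the comparisons that do not contain it, after its values were seen. Replicate numbers were not used to pair the samples in the main fit, as set out below.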

Additional observations from a re-analysis of the deposited data

Results flagged for a closer look

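ASPGB1 was lower in every ref2-1 library than in wild type but higher in every ref2-1 med5 library than in med5, and the log2 difference with MED5 minus that without it, from group means, was -2.29. This is the value the gene was chosen by, and no test was made of it. ASPGB1 was also higher in every ref2-1 med5 library than in every ref2-1 library and lower in every ref5-1 med5 library than in every ref5-1 library, and these differences were 3.42 apart on the log2 scale. This was not tested either.

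SEN1 was lower in every med5 library than in every wild-type library and higher in every ref5-1 med5 library than in every ref5-1 library, and the differences were 1.67 apart from group means. The test of this difference, the ref5-1 by MED5 interaction in edgeR, gave 1.68 with an adjusted p of 0.71 with all 18 libraries. The adjusted p was 0.035 without ref2-1 med5 replicate 1, a library that belongs to none of the genotypes compared.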

How the results depend on the processing

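Of 82 tested pairs of a member and a comparison, 1020 alternatives were computed. They include fits without ref2-1 med5 replicate 1 for comparisons that do not contain it, a choice made after seeing the data. In 995 the call was the same, in 3 it was lost, in 22 it was gained and in 0 a called value changed sign; 51 uncalled values changed sign. RLE scaling, no filter and the replicate block changed no count of members called. Replicate numbers were checked by correlating deviations from genotype means. The mean correlation was 0.0535 for 45 pairs of libraries with the same number and -0.0264 for 90 pairs with different numbers. Single pairs reached 0.348 and 0.313. Deviations within a genotype sum to 0, which ties both means together. The check therefore cannot tell whether libraries of the same number shared a batch, and the main fit treats the numbers as names. Under the replicate block ASPGB1's ref2-1 by MED5 value was 2.32. A fit to the compared genotypes alone gave 1 called member in ref5-1 against wild type, 3 in ref2-1 against wild type, 1 in med5 against wild type, 1 in ref5-1 med5 against ref5-1, 1 in ref2-1 med5 against ref2-1 and 3 in ref5-1 against ref2-1. DESeq2 gave 1 in ref2-1 med5 against ref2-1, 2 in ref5-1 med5 against med5 and 2 in ref2-1 med5 against med5. No share of all tested genes was computed for these or the following alternatives, and the cause was not tested. With 1 library left out, counts ran from 0 to 1 in ref5-1 against wild type, 1 to 2 in ref2-1 against wild type, 0 to 1 in med5 against wild type, 0 to 1 in ref2-1 med5 against ref2-1, 0 to 2 in ref5-1 med5 against med5, 0 to 2 in ref2-1 med5 against med5, 1 to 2 in ref5-1 against ref2-1 and 0 to 1 in the ref5-1 by MED5 interaction; it was 0 throughout in ref5-1 med5 against ref5-1. The top counts in ref5-1, ref2-1 and med5 against wild type, and in the interaction, came only without ref2-1 med5 replicate 1. That library belongs to none of these comparisons, and leaving it out there was a choice made after seeing the data. ASPGB1's described interaction ran from 2.06 to 2.74, the highest without med5 replicate 2, and its med5 against wild type value was 0.09 without med5 replicate 2. Depth limits BCAT2 and the low ASPGB1 values, and a miss of the threshold does not show that levels were alike.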
